A study of Mus musculus with 7 samples.

Results

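Primordial germ cells, the precursors of sperm and eggs, arise from the epiblast of the mouse embryo, and 7 genes that direct or mark them were examined for chromatin accessibility in epiblast-like cells (EpiLCs) with and without Smad2 and Smad3. The genes are Kit, Prdm1, Prdm14, Dppa3, Nanos3, Dazl and Ddx4. A listed accessible site was taken when its midpoint lay within 50 kb of a transcription start site (TSS) of one of these genes in the curated RefSeq annotation of mm10, whichever gene's TSS was nearest. This gave 39 of the 75880 sites in the deposited table, of which 11 lie at Dppa3, 11 at Nanos3, 5 at Prdm1, 4 at Ddx4, 3 at Kit, 3 at Prdm14 and 2 at Dazl. The measured values did not enter this choice of sites, but the genes were chosen with earlier results of these data known.

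Accessibility was profiled by ATAC-seq, in which the transposase Tn5 inserts sequencing adapters into open DNA. EpiLCs were made by moving naive embryonic stem cells (ESCs) from 2i and LIF to fibronectin-coated plates with 20 ng/ml activin A, 12 ng/ml Fgf2 and 1% serum replacement for 48 h, and were collected at day 2. The WT cells are the ESC line CCE (129/Sv//Ev). The Smad2/3 DKO cells are clone KT15.1F6, which carries the targeted allele Smad2 tm1Rob/tm1Rob and was deleted for the promoter and exon 1 of Smad3 with CRISPR nickases. Each genotype has 3 differentiations of 1 clone, so clone and genotype cannot be told apart, and both genotypes were exposed to the same activin A. Each reaction took 75000 cells, in 2 technical replicates, and Tn5-treated genomic DNA of WT EpiLCs (100 ng) served as the authors' control for site calling.

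Germ cell fate is induced in the posterior epiblast by BMP signals, which act through Smad1 and Smad5, on cells made competent by Wnt3, whereas Nodal and activin signal through Smad2 and Smad3. Prdm1, Prdm14 and Tfap2c then switch off somatic genes and restore parts of the pluripotency network, and Kit, Dppa3 and Nanos3 mark or protect the new germ cells. Dazl and Ddx4 act later, when germ cells reach the gonad, and their CpG-rich promoters are held silent in other cells by DNA methylation and by repressor complexes that contain E2f6, Mga and Max. EpiLCs model the epiblast from which germ cells can be induced, and are not germ cells themselves.

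The sequences printed here are the promoters that can be read against the accessible sites, and the Nanos3 sites that stood high in DKO for their level. RefSeq promoters (GRCm38.p6, the assembly that mm10 names) were matched for 5 of the 7 genes, and the 250 bases before the TSS are printed 5′ to 3′ on the gene's strand. Capitals mark matches, on either strand, to the strings CACGTG (the E-box of Mga and Max), TCCCGC (E2F6) and GCCNNNGGC (AP-2, the family of Tfap2c). They also mark GGGCGTGG (Klf) and CAGACAG (a string with a Smad half-site). The first 4 promoters below are those with an accessible site within 1 kb, and Nanos3 is the only matched promoter without one. Prdm14 and Dppa3 also had no listed site within 1 kb, and their promoters were not matched.
Prdm1 promoter, chr10:44458749-44458998, minus strand: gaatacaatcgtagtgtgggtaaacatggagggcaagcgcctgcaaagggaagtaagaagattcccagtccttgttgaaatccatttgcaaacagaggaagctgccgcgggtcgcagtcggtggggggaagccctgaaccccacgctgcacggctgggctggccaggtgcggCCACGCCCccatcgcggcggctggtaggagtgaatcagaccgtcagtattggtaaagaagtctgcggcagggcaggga
Dazl promoter, chr17:50293621-50293870, minus strand: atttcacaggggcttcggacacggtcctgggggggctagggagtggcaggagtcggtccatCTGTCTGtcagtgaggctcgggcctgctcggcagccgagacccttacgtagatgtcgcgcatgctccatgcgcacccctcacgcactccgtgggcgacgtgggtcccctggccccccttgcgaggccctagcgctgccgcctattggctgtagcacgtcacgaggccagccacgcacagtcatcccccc
Ddx4 promoter, chr13:112652311-112652560, minus strand: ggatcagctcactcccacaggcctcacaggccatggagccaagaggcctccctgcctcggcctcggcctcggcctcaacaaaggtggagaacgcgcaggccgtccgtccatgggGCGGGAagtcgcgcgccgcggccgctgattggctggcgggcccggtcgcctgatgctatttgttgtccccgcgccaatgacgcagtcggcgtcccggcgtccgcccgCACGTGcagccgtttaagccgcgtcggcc
Kit promoter, chr5:75574737-75574986, plus strand: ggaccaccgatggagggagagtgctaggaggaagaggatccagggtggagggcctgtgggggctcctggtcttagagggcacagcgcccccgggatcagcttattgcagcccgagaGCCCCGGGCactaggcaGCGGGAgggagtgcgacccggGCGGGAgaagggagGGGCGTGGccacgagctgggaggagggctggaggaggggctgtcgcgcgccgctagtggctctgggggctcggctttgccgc
Nanos3 promoter, chr8:84176553-84176802, minus strand: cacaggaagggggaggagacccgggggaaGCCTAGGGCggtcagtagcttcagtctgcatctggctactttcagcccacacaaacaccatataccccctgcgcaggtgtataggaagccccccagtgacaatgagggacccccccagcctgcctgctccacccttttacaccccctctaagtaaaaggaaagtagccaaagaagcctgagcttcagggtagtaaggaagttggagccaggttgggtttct

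The listed Dazl site covers the TSS and reaches into the gene, so the middle 300 bases of it are printed on the plus strand of mm10, together with the middle 300 bases of the 2 Nanos3 sites that were higher in DKO and lay above the central 90% of sites of their level. Capitals mark the same strings and, in addition, GGAATG (Tead).
Dazl site 515 bp downstream of the TSS, chr17:50292956-50293255: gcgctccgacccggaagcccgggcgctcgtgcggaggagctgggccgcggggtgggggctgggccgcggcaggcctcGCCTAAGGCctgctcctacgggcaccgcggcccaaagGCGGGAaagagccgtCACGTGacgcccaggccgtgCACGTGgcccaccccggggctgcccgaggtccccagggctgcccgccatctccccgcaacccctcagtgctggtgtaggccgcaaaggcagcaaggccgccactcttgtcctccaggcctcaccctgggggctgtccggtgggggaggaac
Nanos3 site 24218 bp upstream of the TSS, chr8:84200621-84200920: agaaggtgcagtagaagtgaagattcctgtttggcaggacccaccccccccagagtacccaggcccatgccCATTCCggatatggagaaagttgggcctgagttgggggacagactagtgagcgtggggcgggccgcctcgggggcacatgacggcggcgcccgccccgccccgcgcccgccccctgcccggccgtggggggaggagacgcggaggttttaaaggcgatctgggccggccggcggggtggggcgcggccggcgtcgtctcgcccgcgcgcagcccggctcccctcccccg
Nanos3 site 27083 bp upstream of the TSS, chr8:84203486-84203785: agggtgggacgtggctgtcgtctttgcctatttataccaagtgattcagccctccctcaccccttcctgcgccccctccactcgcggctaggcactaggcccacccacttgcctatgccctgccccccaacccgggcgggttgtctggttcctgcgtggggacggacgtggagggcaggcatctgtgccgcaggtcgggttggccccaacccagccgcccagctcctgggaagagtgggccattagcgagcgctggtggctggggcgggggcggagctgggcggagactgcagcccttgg

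Values below are concentrations, the log2 mean of normalized reads that the authors give for each genotype at each site. They are the authors' means over the 3 differentiations, with no value per library, so no SD, depth or test between genotypes can be given, and a site is described as lower or higher when the DKO concentration differed from the WT concentration by more than 1.5-fold (0.585 on the log2 scale). Over all 75880 sites the median concentration was 5.06 in WT and 4.94 in DKO, and the median difference, DKO minus WT, was -0.08. Of all sites, 16.0% were lower in DKO by over 1.5-fold and 8.51% were higher. The Smad3 promoter site, 221 bp upstream of the TSS, went from 5.42 in WT to -0.10 in DKO, the lowest DKO value in the table. The Smad3 deletion covers this promoter. At Smad2 the promoter site was at 8.35 in WT and 8.28 in DKO. In a bulk profile, fewer cells with an open site and less opening per cell cannot be told apart. Promoter sites of the EpiLC markers Pou5f1, Fgf5, Pou3f1 and Dnmt3b had concentrations between 5.63 and 7.72 in WT and DKO. Otx2 had no listed site within 1 kb of its TSS.

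At the 7 germ cell genes, most sites and every promoter site differed between WT and DKO by less than 1.5-fold. Most sites in the table as a whole also stayed within that fold. Of the 39 sites, 3 were lower in DKO (7.69%, beside 16.0% of all sites), 5 were higher (12.8%, beside 8.51%) and 31 differed by less than 1.5-fold. The median difference was -0.04, with 20 sites below 0 and 19 above, and the range ran from -0.98 to 0.81. All 5 promoter sites, within 1 kb of a TSS, were among the 31, with differences between -0.38 and 0.03. Of all 15001 sites within 1 kb of a TSS, 4.17% were lower and 3.69% higher, so most of those also stayed within 1.5-fold. Among the 34 germ cell gene sites farther out were the 3 lower and the 5 higher ones, 2 of the 3 lower and 2 of the 5 higher being at Nanos3. No site of Prdm1, Dazl or Ddx4 passed 1.5-fold in either direction.

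**Figure D1:**
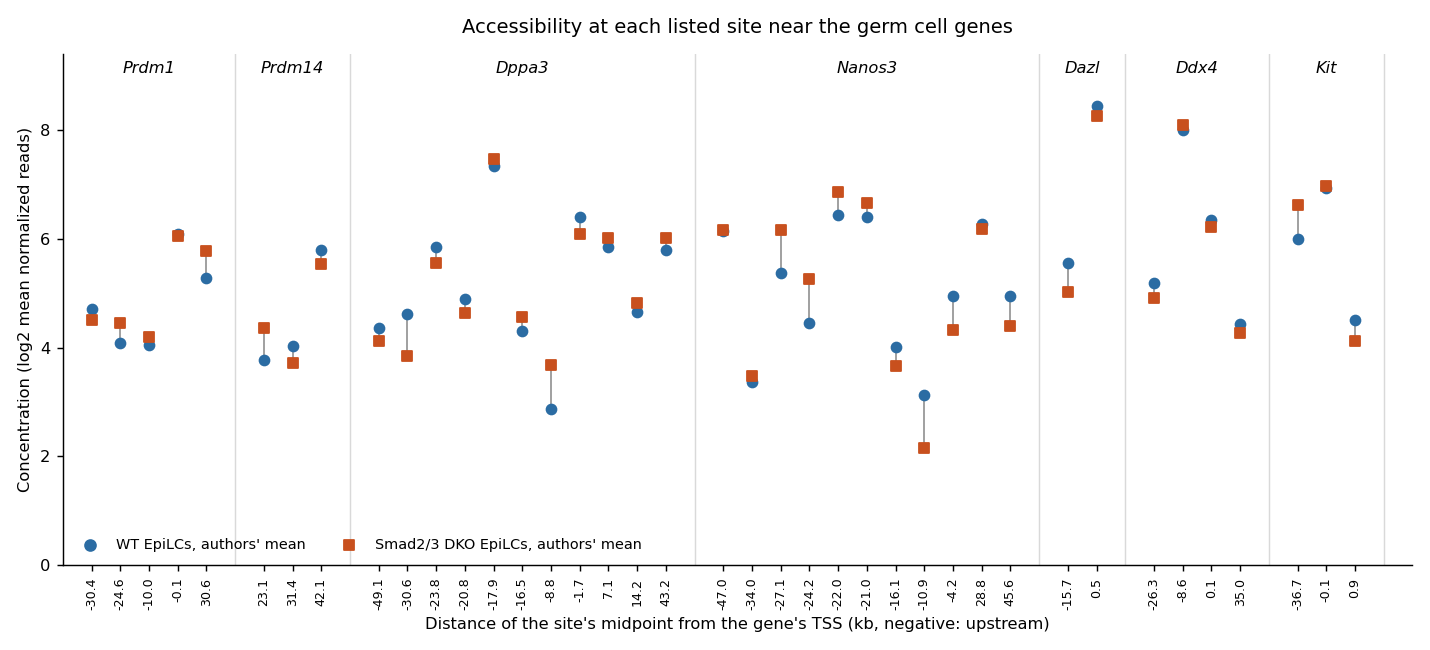
Concentration (log2 mean normalized reads) at each of the 39 sites, grouped by gene and ordered by distance from the TSS in kb, with the authors' mean for WT as circles and for Smad2/3 DKO as squares joined by a line; there are no error bars because the table gives 1 mean per genotype. The promoter sites of Prdm1, Dazl, Ddx4 and Kit overlap or nearly overlap, and the longest lines are at Nanos3 and Dppa3.

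Kit, the receptor tyrosine kinase through which Kit ligand sustains migrating germ cells, lies on the plus strand of chromosome 5 (chr5:75574987-75656722) and has 2 curated TSSs. Its promoter site, centred 92 bp upstream, had a concentration of 6.94 in WT and 6.97 in DKO. A weaker site in intron 1, 929 bp downstream, was at 4.50 in WT and 4.12 in DKO. The remaining site, intergenic and farther upstream, rose above the threshold, from 5.99 in WT to 6.63 in DKO, a 1.56-fold difference. For sites with a level between 6 and 7 (the log2 of the mean of both genotypes), the central 90% of differences over the whole table ran from -0.71 to 0.45, so this site lay above that range. By construction about 5% of all sites of a level lie above such a range, and 3 of the 39 germ cell gene sites did. Summed over its sites, Kit had 209 normalized reads in WT and 241.8 in DKO, 116% of WT, a log2 ratio of 0.21 that comes from the upstream site. Within 10 kb of the TSS the log2 ratio of the sums was -0.03. The median difference was 0.03 at Kit and 0.11 over the 34 listed sites within 1 Mb.

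Prdm1, also called Blimp1, encodes the zinc finger repressor that is first to mark germ cell precursors in the epiblast. The gene is on the minus strand of chromosome 10 (chr10:44437174-44458748), and every site in its window has the Prdm1 TSS as its nearest. The promoter site (chr10:44458600-44459040) was at 6.10 in WT and 6.06 in DKO. Upstream, intergenic sites at 10017, 24637 and 30352 bp had WT concentrations of 4.04, 4.09 and 4.72 and DKO concentrations of 4.19, 4.46 and 4.51. Beyond the 3′ end of the gene, an intergenic site at 30558 bp (chr10:44427990-44428390) had the largest difference of the locus, from 5.29 in WT to 5.78 in DKO, which is 1.40-fold and within the threshold. Summed levels in DKO were 110% of WT. The 57 listed sites within 1 Mb on either side of Prdm1 had a median difference of 0.15, as did the 5 sites at Prdm1.

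Prdm14 encodes a related PRDM protein that restores pluripotency genes and lowers DNA methylation in nascent germ cells. No site was listed within 1 kb of its TSS on chromosome 1 (chr1:13113428-13127163, minus strand), or anywhere in the gene. All 3 sites of its window lie beyond the 3′ end, in intergenic sequence, and the nearest is 23098 bp from the TSS. That site (chr1:13103850-13104280) was at 3.77 in WT and 4.37 in DKO, a difference of 0.60, just past the threshold and, per length, the weakest of the 39 in WT, with 3.17 normalized reads per 100 bp. The sites at 31388 and 42143 bp had lower values in DKO, within the threshold, at 4.03 and 5.79 in WT and at 3.71 and 5.53 in DKO. The 3 sites together had 93.7% of the WT level in DKO. Their median difference was -0.26, beside 0.16 for the 39 listed sites within 1 Mb of Prdm14.

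Dppa3, also called Stella or PGC7, encodes a small protein that shields DNA from maintenance methylation by binding Uhrf1. It sits between Gdf3 and Nanog on chromosome 6 (chr6:122626424-122630271, plus strand), in a region where naive pluripotency and germ cell genes are clustered. The nearest site, 1689 bp upstream of the TSS (chr6:122624500-122624970), was at 6.40 in WT and 6.09 in DKO, 18.0 and 14.5 normalized reads per 100 bp. On the other side, intergenic sites 7111 and 14161 bp downstream were at 5.86 and 4.65 in WT and at 6.01 and 4.82 in DKO. These 3 sites, the only ones in the window for which Dppa3 has the nearest TSS, stayed within 0.31 of WT on the log2 scale.

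The other 8 sites in the Dppa3 window lie nearer to another gene. The widest, 1480 bp long in intron 1 of Gdf3 (17874 bp upstream of Dppa3), was at 7.34 in WT and 7.48 in DKO. The Apobec1 promoter site, 23799 bp upstream of Dppa3, was at 5.86 and 5.55, and a site in Gdf3 exon 1 was at 4.30 and 4.57. The lower site of the window was in intron 3 of Apobec1, 30649 bp upstream (chr6:122595660-122595890), and fell from 4.61 in WT to 3.84 in DKO, 1.71-fold. The higher one was intergenic, 8789 bp upstream and nearest to Gdf3 (chr6:122617560-122617710), and went from 2.87 to 3.68. It rests on 7.31 normalized reads in WT and 12.8 in DKO, and at levels below 4 the central 90% of all sites spanned -1.71 to 1.34. Of the remaining sites, those at 49114 and 20799 bp upstream were at 4.36 and 4.90 in WT and at 4.12 and 4.64 in DKO, and the one 43201 bp downstream, nearest to Nanog, at 5.79 and 6.01. The window as a whole had 99.8% of the WT level in DKO, and its median difference was 0.14, beside -0.03 for the 62 listed sites within 1 Mb.

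Nanos3 encodes an RNA-binding protein that keeps migrating germ cells alive. It lies in a gene-dense part of chromosome 8 (chr8:84173733-84176552, minus strand). Each of its 11 sites is closer to the TSS of another gene, among them the microRNA genes Mir181c and Mir23a. For microRNA genes the start of the RefSeq record was taken as the TSS, and it need not be where transcription starts. No site was listed within 1 kb of the Nanos3 TSS. The nearest, 4158 bp upstream (chr8:84180490-84180930) and 1749 bp from the start of the Mir181c record, was lower in DKO, at 4.95 in WT and 4.32 in DKO. The next, 10928 bp upstream (chr8:84187390-84187570), fell from 3.13 to 2.15, the largest decrease among the 39 sites, on 8.75 and 4.44 normalized reads. All 3 lower sites, this one, the one at 4158 bp and the Apobec1 site in the Dppa3 window, lay inside the central 90% of sites of their level (-1.71 to 1.34 below a level of 4, and -1.13 to 0.78 from 4 to 5). The one at 16123 bp was at 4.01 and 3.66, within the threshold.

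Farther upstream of Nanos3, 4 neighbouring sites had higher values in DKO than in WT. The sites 21023 and 21958 bp upstream were at 6.40 and 6.45 in WT and at 6.66 and 6.86 in DKO, within the threshold. The site at 24218 bp (chr8:84200520-84201020) rose from 4.45 to 5.26 and the site at 27083 bp (chr8:84203230-84204040) from 5.38 to 6.16, differences of 0.81 and 0.78 that lay above the central 90% of sites of their level (-1.13 to 0.78 for levels from 4 to 5, and -0.87 to 0.58 for levels from 5 to 6). Both are intergenic, and the nearest TSS taken is the start of the Mir23a record, at 7748 and 4883 bp. These runs were set apart after their values had been seen. The 4 sites from 20 to 30 kb upstream, which span 6790 bp, together had 139% of the WT level in DKO, and the 3 sites within 20 kb upstream, which span 12300 bp, had 66.4%. The other 4 sites lie elsewhere in the window. Those 34003 and 46963 bp upstream were at 3.36 and 6.15 in WT and at 3.48 and 6.17 in DKO, the Cc2d1a promoter site, 28787 bp downstream, at 6.27 and 6.18, and a site in Podnl1 exon 8, 45557 bp downstream, at 4.95 and 4.39. The window summed to 113% of WT, with a median difference of 0.02, beside 0.06 for the 139 listed sites within 1 Mb.

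**Figure D2:**
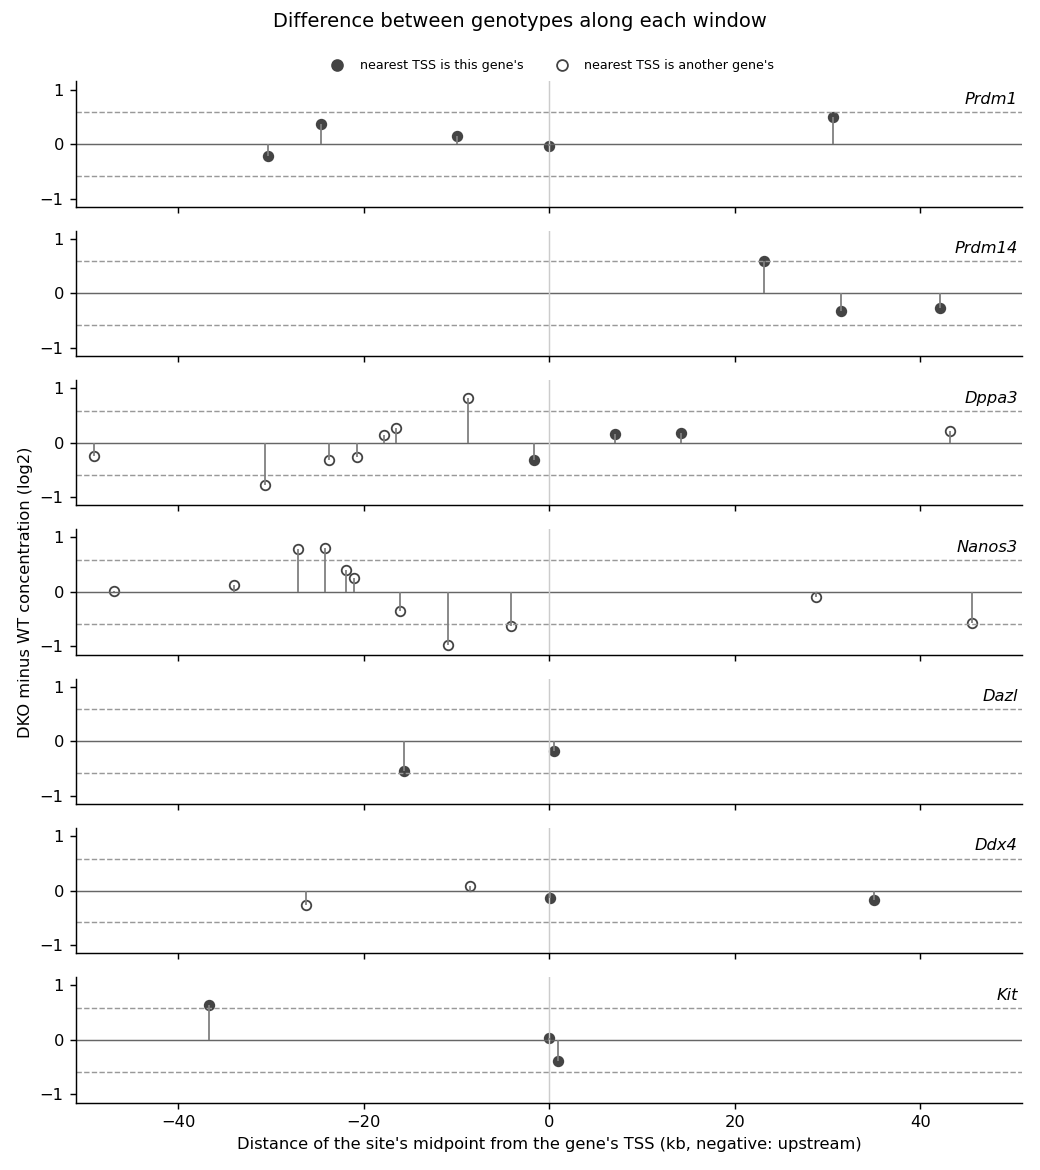
Difference in concentration (DKO minus WT, log2) at each site against the distance of its midpoint from the gene's TSS in kb, 1 panel per gene, with dashed lines at a 1.5-fold difference in either direction. Filled points have the listed gene's TSS as the nearest and open points another gene's. All 3 sites below the lower line are open points, with Mir181c or Apobec1 as the nearest. At Nanos3 the points within 20 kb upstream lie below 0 and those from 20 to 30 kb above it.

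Dazl, an RNA-binding protein that commits gonadal germ cells to gamete formation, had the strongest site of the 39 per length. This site (chr17:50292580-50293630) covers the TSS and part of intron 1 of the gene (chr17:50279393-50293620, minus strand), and was at 8.44 in WT and 8.27 in DKO, 33.1 and 29.4 normalized reads per 100 bp. Its GC content was 67.6%, and its 95 CpGs were 0.80 of the number expected from its base composition. The sequence printed above holds 2 CACGTG strings and 1 match to TCCCGC. The only other site, intergenic and 15660 bp upstream (chr17:50308890-50309670), was at 5.56 in WT and 5.02 in DKO, a difference of -0.54 that stayed within the threshold. Dazl had the lowest summed level of the 7 genes relative to WT, at 86.5%. The median difference was -0.36 over its 2 sites and -0.18 over the 49 listed sites within 1 Mb.

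Ddx4, the germ line RNA helicase also known as mouse vasa homolog, lies on chromosome 13 (chr13:112598333-112652310, minus strand). Its promoter site (chr13:112651960-112652500) was at 6.35 in WT and 6.22 in DKO. With a GC content of 74.1% and 12.4 CpGs per 100 bp it was the most CpG-dense of the 39 sites, and the Ddx4 promoter printed above holds a CACGTG and a match to TCCCGC. A site in intron 15, 34975 bp downstream, was at 4.44 in WT and 4.27 in DKO. The other 2 sites belong by position to the neighbouring gene Slc38a9: its promoter site, 8550 bp upstream of Ddx4, was at 8.0 and 8.09, and a site in its intron 2 at 5.19 and 4.92. The Ddx4 sum was 100% of WT, or a log2 ratio of -0.14 when the Slc38a9 sites were left out, and the median difference was -0.15, beside -0.17 for the 71 listed sites within 1 Mb.

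The promoter sites of the germ cell genes were then set beside other sites of the same kind. The 4 promoters with a site had concentrations from 6.10 to 8.44 in WT and from 6.06 to 8.27 in DKO, leaving out the weaker second Kit site. Of the 15001 sites in the table within 1 kb of any TSS, 4.17% were lower in DKO and 3.69% higher, so that 0 of 5 is near this background. Of the 60879 sites farther out, 18.9% were lower and 9.70% higher, beside 3 and 5 of the 34 distal germ cell gene sites. Marker promoters of other lineages were listed too: of trophoblast, Gata3 and Cdx2 were at 8.50 and 7.24 in WT and at 8.52 and 7.01 in DKO, and Elf5 at 4.55 and 3.86. Of endoderm, Sox17 and Gata6 were at 7.61 and 6.91 in WT and at 7.74 and 6.83 in DKO, and Gata4 and Sox7 were lower, at 4.71 and 3.42 in WT and at 4.81 and 3.27 in DKO. Each of the 4 naive ESC, 4 trophoblast and 4 endoderm markers had a listed promoter site, and of these only the Elf5 site passed 1.5-fold. Over their whole windows, 12 of 41 EpiLC marker sites were lower in DKO (29.3%) and 2 higher (4.88%), 1 of 19 naive marker sites was lower (5.26%) and 5 higher (26.3%), 4 of 28 trophoblast marker sites were lower (14.3%) and 2 higher (7.14%), and 1 of 13 endoderm marker sites was lower (7.69%) and 0 higher, beside 16.0% lower and 8.51% higher among all sites. The part of a shift in cell state in the values at the germ cell genes was not tested.

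**Figure D3:**
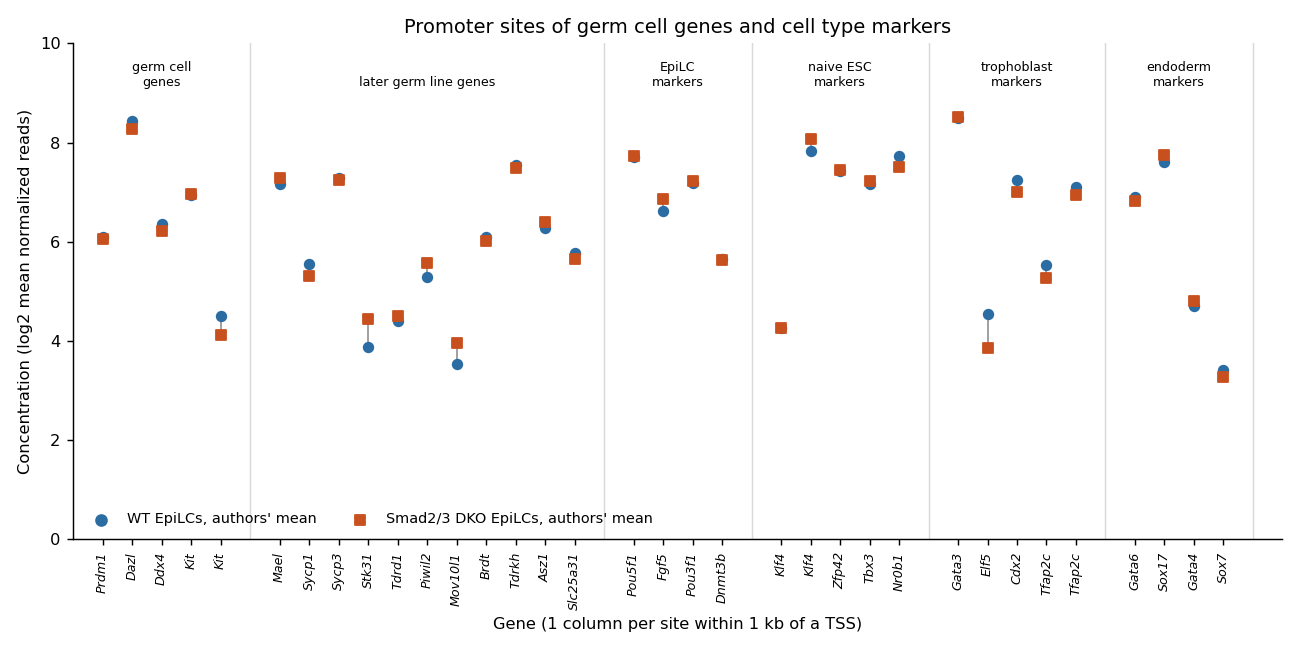
Concentration (log2 mean normalized reads) of sites within 1 kb of a TSS, 1 column per site, for the germ cell genes, later germ line genes and markers of EpiLCs, naive ESCs, trophoblast and endoderm, with the authors' mean for WT as circles and for Smad2/3 DKO as squares. The germ cell gene promoters fall among those of the other groups, and only Elf5 differs by more than 1.5-fold.

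In base composition the 39 sites were somewhat richer in CpG than the table as a whole, with a median GC content of 52.4% and a median CpG ratio (observed over expected) of 0.43, beside 50.6% and 0.29 for all sites and 61.7% and 0.73 for all sites within 1 kb of a TSS. The Nanos3 promoter, which had no listed site, had a CpG ratio of 0.13 over its 300-base RefSeq window, whereas those of Kit, Prdm1, Dazl and Ddx4 had 0.62, 0.77, 0.80 and 0.98, and the median of 32851 RefSeq promoters was 0.38. Prdm14 and Dppa3 also lacked a listed promoter site but had no matched promoter sequence, so this contrast rests on Nanos3 alone. CACGTG was found in the central 300 bases of 4 of the 39 sites (10.3%), beside 5.28% of all sites and 7.15% of RefSeq promoters. They include the Dazl and Ddx4 promoter sites. TCCCGC was found in 9 of the 39 (23.1%), beside 15.2% of all sites and 20.0% of promoters. The strings ATGCAAAT (octamer) and CTTTGAT (Tcf/Lef) were each found in 1 site (2.56%), beside 3.16% and 4.37% of all sites. CAGACAG, the string with a Smad half-site, was found in 2 sites (5.13%, beside 8.90% of all sites) and the Otx2 string GGATTA in 5 (12.8%, beside 8.71%). The AP-2 string was found in 7 (17.9%, beside 14.0%), the Klf string in 3 (7.69%, beside 3.42%) and the Tead string in 9 (23.1%, beside 17.6%). GTCTAGAC (Smad palindrome), TGTGGATT (Foxh1), AGGTGTGA (T-box), GGTCTCTAA (Prdm14) and TCAAGGTCA (Essrb) were not found in these windows, and are present in between 0.216% and 1.23% of all sites. Both strands were searched, and the strings do not overlap one another in the sequences printed.

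**Figure D4:**
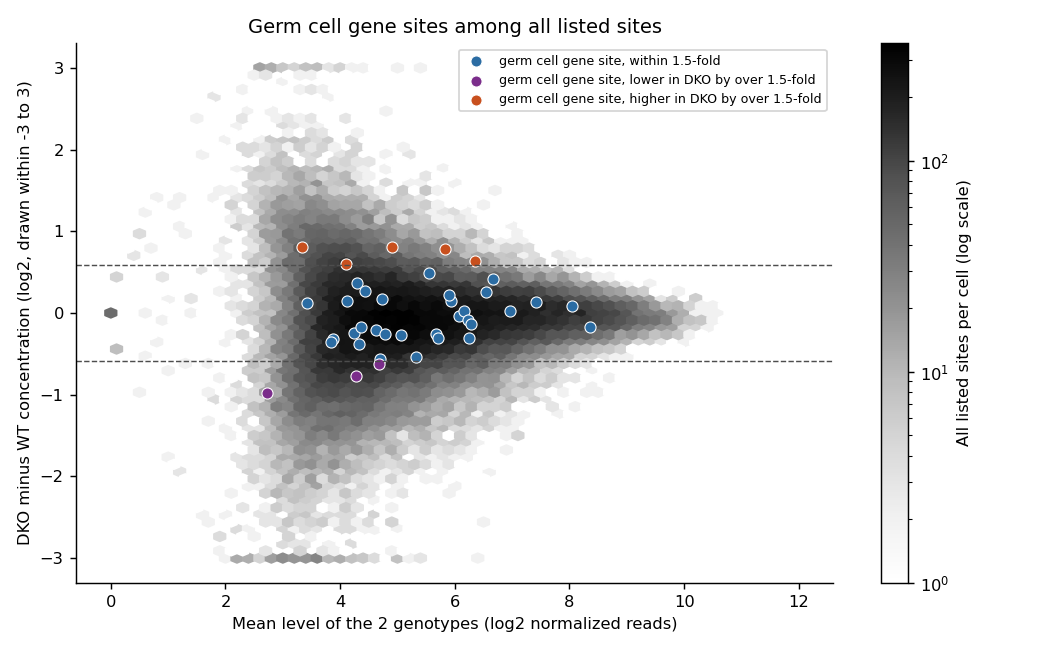
Difference in concentration (DKO minus WT, log2, drawn within -3 to 3) against the mean level of both genotypes (log2 normalized reads), with all 75880 listed sites as grey hexagons shaded by their number on a log scale and the 39 germ cell gene sites as coloured points. The spread of all sites narrows as the level rises, and the 3 sites above the central 90% of their level are the 3 higher sites with the highest levels. By construction about 5% of all sites of a level lie above that range and about 5% below it, beside 3 above and none below among these 39.

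The wider germ cell pathway was read in the same way, with windows of 50 kb around each gene, and each list's shares stand beside the 16.0% lower and 8.51% higher of all sites. Ligands, receptors and effectors of specification (13 genes, among them Bmp4, Bmp8b, Wnt3, Smad1, Smad5 and T) had 68 sites, of which 9 were lower in DKO (13.2%) and 4 higher (5.88%), both below the shares over all sites, with a median difference of -0.07. None of their 12 promoter sites passed 1.5-fold, beside 4.17% lower and 3.69% higher among all sites within 1 kb of a TSS. The Bmp4 promoter, the BMP ligand that induces germ cell fate, was at 5.70 in WT and 5.29 in DKO, and that of T (Brachyury), which activates Prdm1 and Prdm14, at 4.24 and 4.60. The lowest differences were at a site 49169 bp upstream of Bmp2, from 4.72 to 3.23, and in an intron of Smad1, from 4.53 to 3.76. The highest were in an intron of Acvr1, a BMP type I receptor, from 3.63 to 4.62, and 5226 bp upstream of Kitl, the ligand of Kit, from 3.31 to 4.08.

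Early germ cell regulators and their partners (13 genes) had 79 sites, 11 lower (13.9%, beside 16.0% of all sites) and 3 higher (3.80%, beside 8.51%), with a median difference of 0.02. Their window around Nanog shares the site 43201 bp downstream of Dppa3. Beside 4.17% lower and 3.69% higher among all sites within 1 kb of a TSS, 1 of 12 promoter sites passed the threshold. The Nanog promoter fell from 5.64 to 4.90. Tfap2c, which acts with Prdm1 and Prdm14, kept its promoter sites within the threshold and had the highest difference of the list, 26414 bp downstream of its TSS, from 3.79 to 5.06. The lowest were in the Pou5f1 window, at a coding exon of Cchcr1, from 5.23 to 3.53, and 8369 bp upstream of Cbfa2t2, the Prdm14 partner, from 5.67 to 4.64. The second highest was in an intron of Foxa3 in the Nanos2 window, from 3.18 to 4.28.

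Later germ line genes (15 genes of meiosis and the piRNA pathway, such as Mael, Sycp1, Sycp3 and Tdrd1) had 51 sites, 5 lower and 5 higher (9.80% each, beside 16.0% and 8.51% of all sites), with a median difference of -0.01. All 11 of their promoter sites stayed within 1.5-fold, with a median difference of 0.10. Among all sites within 1 kb of a TSS, 4.17% were lower and 3.69% higher. The differences at the 11 ran from -0.25 at Sycp1, at 5.56 in WT and 5.31 in DKO, to 0.57 at Stk31, at 3.88 and 4.45, just under the threshold. The Mov10l1 promoter was at 3.53 and 3.96, Piwil2 at 5.28 and 5.58, and the stronger Mael and Sycp3 promoters at 7.17 and 7.28 in WT and at 7.29 and 7.24 in DKO. The named distal sites were in the windows of Tdrkh (5.24 to 4.36) and Slc25a31 (6.44 to 5.64), the lowest, and of Stk31 (3.79 to 4.60) and Piwil2 (4.04 to 4.80), the highest.

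Repressors that keep germ line genes silent (14 genes, among them E2f6, Mga, Max, Pcgf6, Setdb1, Dnmt3a, Dnmt3b and Uhrf1) had 84 sites, 3 lower (3.57%, beside 16.0% of all sites) and 8 higher (9.52%, beside 8.51%), with a median difference of 0.02. Beside 4.17% lower and 3.69% higher among all sites within 1 kb of a TSS, 1 of their 15 promoter sites passed the threshold. This was the E2f6 promoter site, in the 5′ UTR 165 bp downstream of the TSS (chr12:16810940-16811320), at 1.99 in WT and 4.32 in DKO, a difference of 2.33. Its WT concentration was the lowest among the 15 promoter sites, so the size of the difference rests on a weak WT value. Differences spread most widely at levels below 4, where the central range of all sites given above ran from -1.71 to 1.34. The E2f6 difference lay above that range, but without values per library its own spread is unknown. The Mga and Max promoters were at 6.67 and 8.50 in WT and at 7.12 and 8.66 in DKO. The second highest difference of the list was 37454 bp upstream of Dnmt3b, from 2.91 to 4.42, and the lowest were in the Pcgf6 window, from 5.39 to 4.72, and 6419 bp upstream of Dnmt3a, from 5.35 to 4.71.

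**Figure D5:**
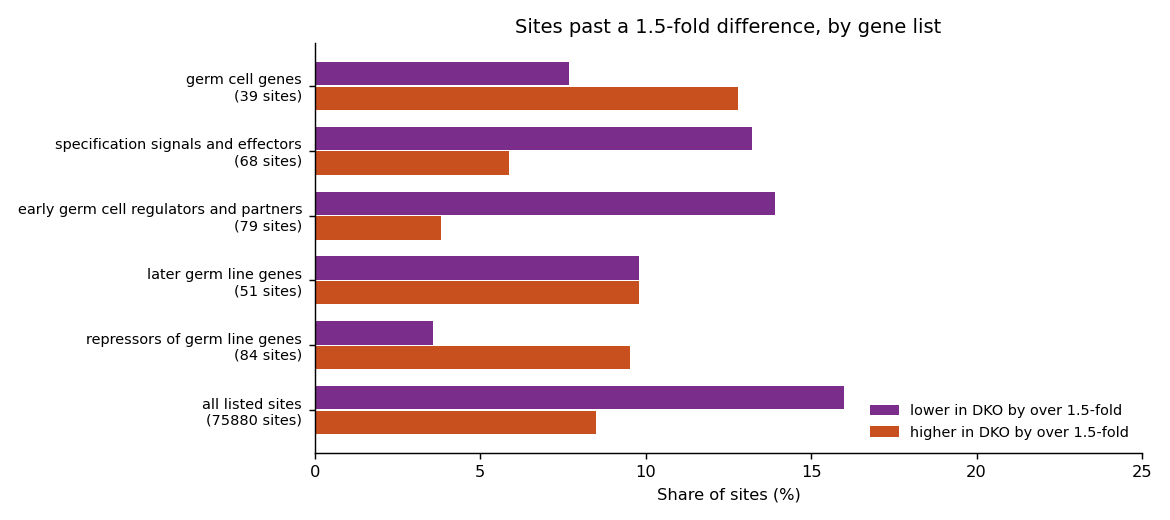
Share of sites (%) that were lower or higher in Smad2/3 DKO than in WT by over 1.5-fold, for the germ cell genes, 4 lists of pathway genes and all listed sites, with the number of sites in brackets. The germ cell genes and the repressors have a larger share of higher than of lower sites, and the table as a whole has the reverse.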

How the data were processed

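In the authors' processing, read pairs were mapped to mm10 with Bowtie2, leaving out mixed and discordant pairs, non-unique and blacklisted reads and PCR duplicates (SAMtools). DANPOS2 called the sites, using the triplicates and the Tn5-treated genomic DNA, and DiffBind compared the genotypes. Versions, the normalization and any shift of read ends for Tn5 are not given in the sources used here. The authors deposited, per site, log2 mean normalized reads (concentrations) within each genotype and over both, and their own log2 fold, p-value and FDR, which were not used. No column holds a library, so no test, depth or interval was computed.

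TSSs were those of 45756 curated RefSeq transcripts of 26180 genes (31647 TSSs), and distances run from site midpoints. Sums are over 2 to the power of the concentration. The genes, gene lists and markers were chosen with earlier results of these data known. Every site of the 7 genes was named, and per list the 2 lowest and 2 highest differences among sites with a concentration of at least 4 in either genotype. Beside these, the promoter sites of Bmp4, T, Nanog, Tfap2c, Sycp1, Stk31, Mov10l1, Piwil2, Mael, Sycp3, Mga and Max were picked with their values known, and so were the promoters of the markers that the text names one by one. Alternatives were windows of 10 and 100 kb, sites whose nearest TSS is the gene's, a concentration minimum of 4, a 2-fold difference, centring and predicted transcripts. The search code was tested on simulated data. Python 3.11.15, numpy 2.4.6, pandas 2.3.3 and matplotlib 3.10.9 were used. The genomic DNA control was not analysed here, and the sequence of 1 site is not reported here.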

Additional observations from a re-analysis of the deposited data

How the results depend on the processing

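Lower in DKO were 3 of 39 germ cell gene sites (7.69%), beside 16.0% of all sites. Within 10 kb this was 1 of 10 (10.0%), and within 100 kb 5 of 63 (7.94%). When only sites whose nearest TSS is the listed gene's were kept, it was 0 of 18. The lower Nanos3 sites fall out because the start of the Mir181c record is nearer, and the lower Dppa3 site because Apobec1 is nearer. Higher were 5 of 39 (12.8%), beside 8.51% of all sites. Within 10 kb this was 1 of 10 (10.0%), within 100 kb 6 of 63 (9.52%), and with the nearest TSS required 2 of 18 (11.1%). At a 2-fold difference 0 of 39 were lower, beside 6.35% of all sites, and 0 were higher, beside 3.01%. A concentration minimum, centring on the median of all sites and the inclusion of predicted transcripts left both counts within 1.5 times. The median difference lay between -0.09 and 0.04 under all 6 alternatives run for it. For the summed levels of single genes, 35 of 40 alternatives moved the log2 ratio by less than 0.1 and 5 by more, and Nanos3 moved most, to -0.63 within 10 kb, where 1 site is left. No sum could be formed for Prdm14 within 10 kb or for Nanos3 with the nearest TSS required, because no site remains. No differentiation could be left out and no paired analysis was possible because the table holds 1 mean per genotype, and the depth behind each value is unknown.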

Other observations

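Beyond the 50 kb window, 24 further sites lie between 50 and 100 kb from a TSS of the 7 genes. Of these, 2 were lower (8.33%, beside 16.0% of all sites) and 1 was higher (4.17%, beside 8.51%) in DKO by over 1.5-fold, with a median difference of 0.13. The innermost of them, 56070 bp downstream of Dazl, was at 4.44 in WT and 4.13 in DKO, beside 4.36 and 4.12 at the outermost site inside the window, 49114 bp upstream of Dppa3. The lower sites were at the Nanog promoter, 80871 bp downstream of Dppa3, from 5.64 to 4.90, and 91612 bp downstream of Nanos3, nearest to Mir709, from 5.30 to 4.60. The higher site lies 74873 bp downstream of the Prdm14 TSS, nearest to Slco5a1, and went from 3.58 to 4.18, a difference of 0.60 like that of the site 23098 bp downstream. A site 70802 bp upstream of Prdm1, where Prdm1 is still the nearest gene, was at 6.68 in WT and 7.0 in DKO.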
